A study of Mus musculus with 83 samples.

Results

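Axon guidance ligands and receptors are the subject here: the semaphorins of classes 3 to 7 with their plexins and neuropilins, the ephrins and Eph receptors, the Slits and Robos, the netrins with Dcc and the Unc5 receptors, and the netrin-Gs. Members were chosen by gene symbol, and 69 of the 48795 genes in the deposited count table carried such a symbol. Netrin-3 was not analysed here. The RNA came from pools of 125 neurons cut out by laser capture. Frontal cortex of male C57BL/6 mice had been sectioned at 14 µm, with old mice of 22 months set against young mice of 2 months. Cells were picked after staining for 1 marker per type: Pvalb for PV, Sst for SST and Vip for VIP interneurons, and Slc17a7, the vesicular glutamate transporter of excitatory cells, for PYC neurons. The groups held 12 old and 9 young PYC libraries, 12 old and 8 young PV libraries, 12 old and 9 young SST libraries, and 12 old and 9 young VIP libraries, 83 in all. No mouse carried a stated allele or treatment, and the labels do not say which pools came from the same mouse. A pool holds whatever else lay under the laser, and in such bulk samples fewer cells expressing a gene and less of its RNA per cell cannot be told apart.

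Semaphorins are secreted or membrane-bound cues that steer axons through plexin receptors, and most secreted class 3 members need a neuropilin as co-receptor. Ephrins and Eph receptors signal in both directions where cells touch, Slits repel axons that carry Robos, and netrins act through Dcc and the Unc5 proteins. In the adult cortex many of these genes stay on and are known for roles in spine density, synapse choice and the positioning of inhibitory contacts.

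Library totals ran from 1.46 to 27.2 M counts (M for mega) with a median of 6.99 M, and 1 count was worth between 0.0368 and 0.686 CPM, the count scaled to 1 M counts per library. The summed CPM of each type's own marker list separated the types: the PV list reached 2261 to 3516 CPM in PV pools and at most 1225 CPM elsewhere, the SST list 3211 to 4642 CPM in SST pools and at most 2314 CPM elsewhere, and the VIP list 1371 to 4291 CPM in VIP pools and at most 244 CPM elsewhere. The pyramidal list did not separate as cleanly, with 2982 to 5819 CPM in PYC pools, 2198 to 4696 CPM in VIP pools, 1582 to 2781 CPM in SST pools and 1059 to 2458 CPM in PV pools. Of the VIP markers Htr3a, Grpr and Npy2r, of the PV markers Kcng4 and Pthlh and of the SST markers Chodl had a median of 0 CPM over all libraries. Mitochondrial genes took 0.215% to 2.51% of the counts in 6 libraries (2 young VIP, 2 PYC of which 1 old and 1 young, 1 young SST and 1 old VIP), against 8.31% to 17.0% in the other 77. A pair of old VIP libraries held over 300 CPM of Sst. Without the 6 libraries 76 of the 80 type calls below held, and without the pair 78; the calls lost are named beside their values.

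All 69 members had a count in at least 1 library, 31 had one in every library, and 51 to 64 members were detected per library. Together they made up 2770 to 4737 CPM. A filter on low values left 53 members for the comparison of types and the remaining 16 are described by their levels. It used the mean over all libraries, so a member low in most types could pass through the type where it was high. The 4 promoters below belong, in each type, to the higher member with the smallest p among members with a single promoter entry. Plxna4 in PV and Sema6d and Sema6a in SST neurons had a smaller p and are not shown. They are RefSeq sequences of GRCm38.p6, from 250 bases before to 50 bases after the annotated start, written 5′ to 3′ on the gene's strand, and capitals mark TATAAA or CANNTG.
Epha4 (PYC neurons, minus strand of chr1:77515039-77515338): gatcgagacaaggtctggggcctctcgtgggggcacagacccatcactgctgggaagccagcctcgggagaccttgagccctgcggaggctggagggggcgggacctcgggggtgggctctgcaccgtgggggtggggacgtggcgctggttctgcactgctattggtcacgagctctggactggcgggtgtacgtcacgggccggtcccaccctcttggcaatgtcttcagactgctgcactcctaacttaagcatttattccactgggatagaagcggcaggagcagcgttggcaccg
Slit2 (PV neurons, plus strand of chr5:47982905-47983204): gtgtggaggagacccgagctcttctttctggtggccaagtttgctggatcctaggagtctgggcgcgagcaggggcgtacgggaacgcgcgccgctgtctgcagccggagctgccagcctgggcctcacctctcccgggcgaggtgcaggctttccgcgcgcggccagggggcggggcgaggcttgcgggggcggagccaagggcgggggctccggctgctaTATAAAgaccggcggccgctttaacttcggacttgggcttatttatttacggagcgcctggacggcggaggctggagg
Sema3a (SST neurons, plus strand of chr5:13396534-13396833): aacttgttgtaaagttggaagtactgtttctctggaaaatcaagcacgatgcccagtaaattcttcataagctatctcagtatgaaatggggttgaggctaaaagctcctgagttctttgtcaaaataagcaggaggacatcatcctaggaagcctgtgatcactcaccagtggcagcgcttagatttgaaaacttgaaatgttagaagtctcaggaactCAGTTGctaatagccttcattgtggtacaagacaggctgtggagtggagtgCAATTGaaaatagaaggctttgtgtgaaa
Sema5a (VIP neurons, plus strand of chr15:32244563-32244862): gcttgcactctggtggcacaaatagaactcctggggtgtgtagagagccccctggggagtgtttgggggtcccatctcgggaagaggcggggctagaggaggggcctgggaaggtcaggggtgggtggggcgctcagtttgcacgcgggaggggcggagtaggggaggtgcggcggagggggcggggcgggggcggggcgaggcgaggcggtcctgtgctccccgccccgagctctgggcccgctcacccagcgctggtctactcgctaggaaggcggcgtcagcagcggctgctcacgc

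The windows of Epha4, Slit2 and Sema5a were rich in G and C (64.0%, 68.0% and 71.3%) and held 17, 30 and 23 CG dinucleotides, while that of Sema3a had 41.3% G and C and 2 CG dinucleotides. GGGCGG, searched on both strands, was found 1 time in Epha4, 3 times in Slit2 and 5 times in Sema5a, and not in Sema3a; 35.7% of 32851 mouse promoters of this length held it. CANNTG, which reads as CANNTG on either strand, was found 2 times in Sema3a and not in the other 3 windows, against 72.3% of all promoters. TATAAA on either strand was found 1 time, in Slit2, against 13.6% of all promoters, and TAATTA in none of the 4, against 5.29%. In the GENCODE M21 annotation of GRCm38, Epha4 (ENSMUSG00000026235) is a protein-coding gene at chr1:77367185-77515088, Slit2 (ENSMUSG00000031558) at chr5:47983138-48307733, Sema3a (ENSMUSG00000028883) at chr5:13125414-13602565 and Sema5a (ENSMUSG00000022231) at chr15:32244810-32696341. The RefSeq start used for Sema3a lies inside the gene so drawn. RefSeq promoters were matched for 59 of the 69 members.

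The 4 neuron types carried different sets of guidance genes, with Slit2 and Plxna4 standing out in PV, Sema3a and Sema6d in SST, Sema5b and Sema3c in VIP, and Epha4 and Plxnd1 in PYC neurons. Each type was compared with the mean of the other 3 types over both ages with edgeR's quasi-likelihood test, and a member was called at an adjusted p under 0.05 over all 9604 genes tested. Of the 53 tested members 40 were called in at least 1 type, where 32.9% of all genes tested were. PYC neurons had 15 members higher and 9 lower, with 9.15% and 7.5% of all genes called in those directions. PV neurons had 7 higher and 19 lower, against 11.1% and 11.6% of all genes. SST neurons had 9 higher and 5 lower, against 4.46% and 3.1%, and VIP neurons had 12 higher and 4 lower, against 6.98% and 5.5%. In either direction, 24 members were called in PYC, 26 in PV, 14 in SST and 16 in VIP neurons, against 16.6%, 22.7%, 7.56% and 12.5% of all genes. As shares of the members tested the counts by direction were 28.3% and 17.0% in PYC, 13.2% and 35.8% in PV, 17.0% and 9.43% in SST, and 22.6% and 7.55% in VIP neurons. Over all types this made 80 calls, of which 66 held whichever single library was left out and 14 did not, most often Epha6 in PYC, Efnb2 in VIP and Plxnc1 in SST neurons.

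Median absolute log2 fold changes of the members were 0.54 in PYC, 0.68 in PV, 0.46 in SST and 0.43 in VIP neurons, beside 0.29, 0.35, 0.22 and 0.28 over all genes tested. The signed median in PV neurons was -0.40, with 39 of 53 members below 0, beside -0.02 over all genes, and the members' summed level was 2905 to 3881 CPM there. In the other types the signed medians of the members were 0.14 (PYC), 0.08 (SST) and 0.19 (VIP). The 4 comparisons use the same libraries, so a gene high in 1 type is pushed low in the others, and the counts are not independent of each other.

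**Figure D1:**
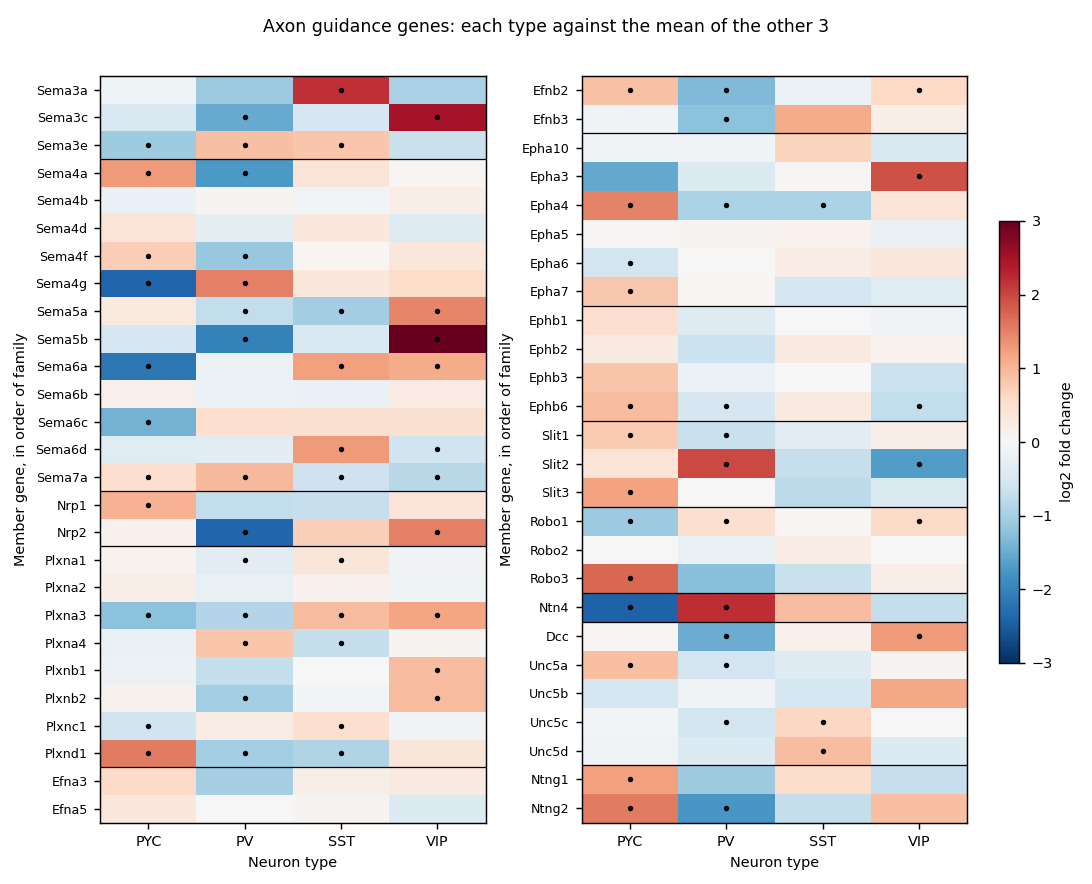
Log2 fold change of each of the 53 tested members (rows, in order of family, with black lines between families) in each neuron type relative to the average of the remaining 3 (columns); black dots mark an adjusted p under 0.05. PV neurons show 19 dotted members below 0 and 7 above it, and the deepest red cell is Sema5b in VIP neurons at 2.98.

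Glial and vascular markers did not stand level across the types. The astrocyte list summed to 1117 to 3021 CPM in PV pools (median 2008 CPM), against 2332 to 3894 CPM in VIP (median 3223 CPM), 1913 to 3886 CPM in PYC (median 2789 CPM) and 2030 to 3459 CPM in SST pools (median 2665 CPM). Slc1a2 alone had a median of 1838 CPM over all libraries, beside 2737 CPM for the whole list, so it carried most of this sum. Of 9 astrocyte markers tested, Apoe, Clu and Slc1a2 fell in PV neurons, Apoe and Slc1a2 rose in VIP neurons, Slc1a2 rose in PYC neurons and Aldoc fell in SST neurons. The endothelial list had medians of 93.9 CPM in VIP, 57.1 CPM in PYC, 64.0 CPM in SST and 45.6 CPM in PV pools, within 13.8 to 233 CPM over all libraries, and none of the 3 endothelial markers tested was called in any type (Emcn and Ly6c1 had a median of 0 CPM). Mural and meningeal markers had medians of 61.2 CPM in VIP, 40.5 CPM in PYC, 43.6 CPM in SST and 31.2 CPM in PV pools, with 6 of 10 at a median of 0. Among oligodendrocyte, precursor and microglial markers 1 call was made, Cspg4 lower in PV neurons. The part of these cells, or of pyramidal RNA in VIP pools, in the members lower in PV or higher in VIP neurons was not tested.

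**Figure D2:**
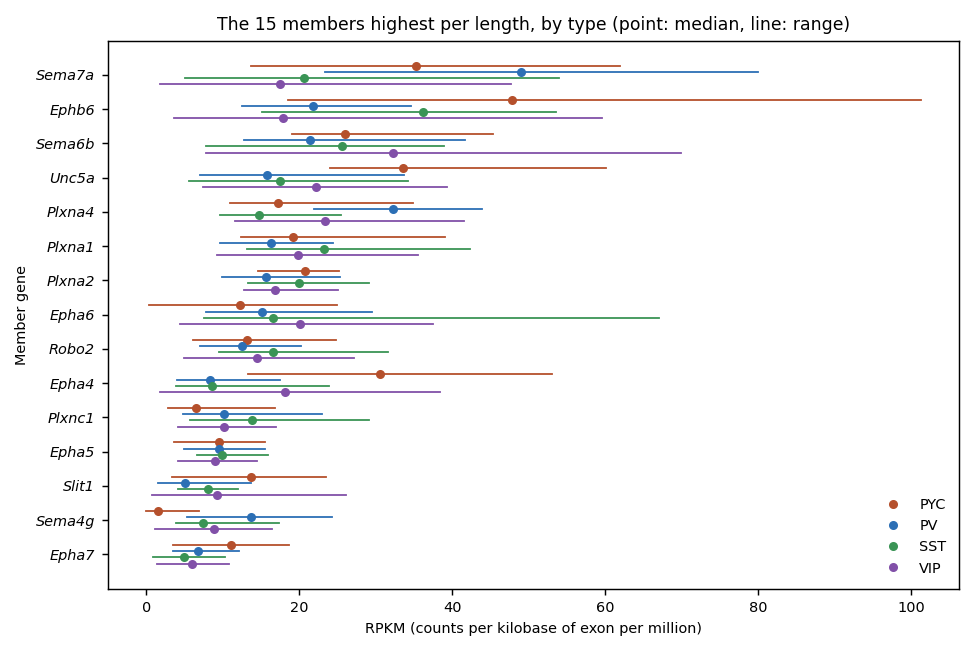
Level per kilobase of exon (RPKM, x axis) of the 15 members with the highest median over all libraries (rows), by neuron type; points are medians over the 20 or 21 libraries of a type and lines run from the lowest to the highest library. Sema7a and Plxna4 sit highest in PV neurons, and Epha4, Ephb6 and Unc5a sit highest in PYC neurons.

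Compared per length of exon, the most abundant members were a mixed set of ligands and receptors. Median RPKM over all 83 libraries was 27.8 for Sema7a, a membrane-anchored semaphorin that binds plexin C1 and integrins, 26.5 for Ephb6, an Eph receptor without kinase activity, and 26.0 for Sema6b, a transmembrane ligand of A-type plexins. These 3 ranged over 1.72 to 79.9, 3.61 to 101 and 7.74 to 69.9 RPKM, so their order was within the spread of the libraries. Unc5a followed at 22.2 RPKM, Plxna4 at 21.4, Plxna1 at 19.0 and Plxna2 at 18.6, then Epha6 at 15.4, Robo2 at 14.3 and Epha4 at 13.1. Each of these neighbours also overlapped in range. Plxna2 had the narrowest range of the 10, 9.96 to 29.2 RPKM, and was called in no type, as were Robo2 and Sema6b. Of the exons of Plxna1 10.7% overlap an antisense gene, and since the strand setting of the counting is not given, reads of the pair cannot be told apart.

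The 3 secreted class 3 semaphorins tested were each higher in 1 or 2 types, and 4 of the 7 members were too low to test. Sema3a, the founding repellent of the class, which acts through neuropilin-1, was higher in SST neurons. It lay at 18.4, 101 and 276 CPM (lowest, median and highest library) in SST neurons, against 5.04, 23.1 and 74.1 CPM in PYC, 0, 17.4 and 50.2 CPM in PV, and 0, 21.9 and 54.0 CPM in VIP neurons. The old SST libraries all lay at 73.8 CPM or above, while the young ones reached down to 18.4 CPM and overlapped the other types, where the highest library had 74.1 CPM. The log2 fold change in SST neurons was 2.18 ± 0.35 (SE; adjusted p = 1.4e-06, edgeR).

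Sema3c, which signals through both neuropilins and plexin D1, was higher in VIP neurons. Its levels were 6.52, 109 and 247 CPM in VIP neurons, against 0, 16.3 and 128 CPM in PYC, 0, 10.2 and 47.8 CPM in PV, and 0, 19.5 and 116 CPM in SST neurons, a log2 fold change of 2.48 ± 0.45 (adjusted p = 1.8e-05). It was also called lower in PV neurons at -1.51 ± 0.56 (adjusted p = 0.041), a call lost under 7 other settings, leaving out the libraries low in mitochondrial counts among them, and when any of 10 single libraries was left out. Sema3e, which binds plexin D1 without a neuropilin, was higher in 2 types. It had 18.1, 63.5 and 136 CPM in PV neurons and 25.1, 66.9 and 135 CPM in SST neurons, against 0.901, 20.4 and 68.4 CPM in PYC and 4.24, 19.9 and 79.6 CPM in VIP neurons. On the log2 scale the differences were 0.90 ± 0.26 in PV (adjusted p = 0.0063), 0.83 ± 0.26 in SST (adjusted p = 0.028) and -1.07 ± 0.29 in PYC neurons (adjusted p = 0.0038). The SST call was lost without either of 2 single libraries and under 3 other settings, each age alone among them.

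The 4 class 3 genes left out by the filter were Sema3b, Sema3d, Sema3f and Sema3g, with counts in 16, 56, 53 and 22 of 83 libraries. None of them exceeded 49.7 CPM in any library. In a fit with a looser filter Sema3b was called higher in SST and VIP and lower in PV neurons, Sema3f lower in PV and Sema3g higher in VIP neurons. Earlier work on these data found many false calls among sparse genes in such a fit on simulated counts. The share of all genes called with the looser filter was not counted. Sema3b had counts in 6 of 21 VIP and 5 of 21 SST libraries, against 1 of 20 PV and 4 of 21 PYC libraries, so these calls rest on few libraries.

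Of the neuropilins, Nrp1 was called higher in PYC and Nrp2 in VIP neurons, and neither set its type clearly apart. Nrp1, co-receptor for Sema3a, was higher in PYC neurons at 6.90, 40.0 and 94.0 CPM, against 1.63, 18 and 39.5 CPM in PV, 0.391, 15.2 and 66.3 CPM in SST, and 0.451, 34.1 and 93.9 CPM in VIP neurons (log2 fold change 1.04 ± 0.32, adjusted p = 0.012). VIP libraries covered the PYC range of Nrp1 almost in full. The Nrp1 call was lost in each age alone (edgeR adjusted p = 0.1055 in old and 0.1603 in young libraries). Nrp2, co-receptor for Sema3f and Sema3c, had 2.63, 32.6 and 128 CPM in VIP neurons, against 3.43, 15.8 and 79.5 CPM in PYC, 0, 3.51 and 43.3 CPM in PV, and 2.74, 28.9 and 76.1 CPM in SST neurons. Its log2 fold change was 1.52 ± 0.33 in VIP neurons (adjusted p = 0.00036) and -2.37 ± 0.44 in PV neurons (adjusted p = 6e-06). The ranges of PYC, SST and VIP neurons overlapped over most of their length, and the median PV library lay near the lowest libraries of the other types.

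Membrane-bound semaphorins of classes 4 to 7 were the family with the most tested members. Of these 12 members 9 were called in at least 1 type, beside 75.5% of all 53 tested members. Sema5b and Sema5a, transmembrane semaphorins with thrombospondin repeats known in mouse retina as repellents acting through A-type plexins, were both higher in VIP neurons. Sema5b lay at 28.8, 70.9 and 153 CPM in VIP neurons, against 0, 6.00 and 59.0 CPM in PYC, 0, 2.84 and 27.3 CPM in PV, and 0, 8.55 and 45.1 CPM in SST neurons. Every VIP library lay above every PV library, while the highest PYC and SST libraries entered the VIP range. The log2 fold change of 2.98 ± 0.48 (adjusted p = 1.5e-06) was the highest among the 53 tested members, and PV neurons were lower at -2.02 ± 0.63 (adjusted p = 0.011).

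Sema5a had 31.8, 105 and 190 CPM in VIP neurons, against 4.13, 45.0 and 205 CPM in PYC, 2.44, 33.5 and 60.6 CPM in PV, and 1.58, 24.9 and 75.8 CPM in SST neurons. It rose in VIP neurons at 1.47 ± 0.21 (adjusted p = 4.8e-08) and fell in SST neurons at -1.03 ± 0.25 (adjusted p = 0.0014) and PV neurons at -0.73 ± 0.25 (adjusted p = 0.021). Most VIP libraries stood above the PV and SST ranges, and the single highest library was a PYC one.

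Sema4g, a transmembrane semaphorin of class 4, was high in PV and low in PYC neurons. It had 45.6, 118 and 210 CPM in PV neurons, against 0.163, 13.2 and 59.5 CPM in PYC, 33.6, 64.1 and 150 CPM in SST, and 9.39, 76.4 and 143 CPM in VIP neurons. Its log2 fold changes were 1.52 ± 0.22 in PV (adjusted p = 1.7e-08) and -2.39 ± 0.28 in PYC neurons (adjusted p = 6.4e-12). Sema4a, which binds plexin D1 and is best known from immune cells, ran the other way. It had 10.9, 49.7 and 98.5 CPM in PYC neurons, against 0, 7.49 and 29.7 CPM in PV, 3.47, 29.6 and 91.4 CPM in SST, and 0.239, 23.2 and 99.8 CPM in VIP neurons, with log2 fold changes of 1.28 ± 0.33 in PYC (adjusted p = 0.002) and -1.73 ± 0.41 in PV neurons (adjusted p = 0.00045). Sema4f shared that direction at 0.74 ± 0.26 in PYC (adjusted p = 0.035) and -1.13 ± 0.30 in PV neurons (adjusted p = 0.0023). Its PYC call was lost without any of 3 single libraries and under 2 other settings, young libraries alone among them. Sema4b and Sema4d were called in no type, and Sema4c was not tested, with 0 to 49.7 CPM.

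Class 6 semaphorins, transmembrane ligands of A-type plexins, fell in PYC neurons in 2 of 4 members. Sema6a had 47.1, 86.0 and 208 CPM in SST neurons and 29.6, 89.9 and 181 CPM in VIP neurons, against 1.11, 14.6 and 35.4 CPM in PYC and 18.4, 40.9 and 98 CPM in PV neurons. No PYC library reached the lowest SST library. Log2 fold changes were 1.24 ± 0.19 in SST (adjusted p = 2.3e-07), 1.11 ± 0.19 in VIP (adjusted p = 3.4e-06) and -2.16 ± 0.23 in PYC neurons (adjusted p = 2.4e-13). Sema6d, a ligand of plexin A1, had 59.2, 159 and 299 CPM in SST neurons, against 20.8, 63.1 and 133 CPM in PYC, 27.8, 69.7 and 101 CPM in PV, and 19.9, 54.1 and 136 CPM in VIP neurons. It rose in SST neurons at 1.27 ± 0.16 (adjusted p = 2.2e-10) and fell in VIP neurons at -0.60 ± 0.17 (adjusted p = 0.010). The median SST library lay above the highest library of every other type.

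Sema6c had 0, 9.57 and 33.6 CPM in PYC neurons, against 12.4, 32.6 and 89.7 CPM in PV, 5.09, 39.0 and 63.1 CPM in SST, and 0.559, 35.7 and 103 CPM in VIP neurons, a log2 fold change of -1.42 ± 0.32 (adjusted p = 0.00028). Sema6b differed between types by at most 0.24 ± 0.14 on the log2 scale and was not called. Sema7a was called in all 4 types. It had 77.1, 162 and 264 CPM in PV neurons and 45.0, 116 and 204 CPM in PYC neurons, against 16.9, 68.1 and 178 CPM in SST and 5.68, 57.5 and 157 CPM in VIP neurons. On the log2 scale the differences were 0.97 ± 0.17 in PV (adjusted p = 3.2e-06), 0.50 ± 0.17 in PYC (adjusted p = 0.031), -0.62 ± 0.18 in SST (adjusted p = 0.018) and -0.84 ± 0.19 in VIP neurons (adjusted p = 0.00044). The SST call did not hold without the 6 libraries low in mitochondrial counts, at -0.56 on the log2 scale, and the PYC call was lost without any of 6 single libraries. No Sema7a call held in both ages fitted alone. The PV and SST calls were lost in young libraries, the VIP call in old libraries and the PYC call in each age. With the F number in the titles as a factor, whose meaning is not stated, the PYC and SST calls were lost too.

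**Figure D3:**
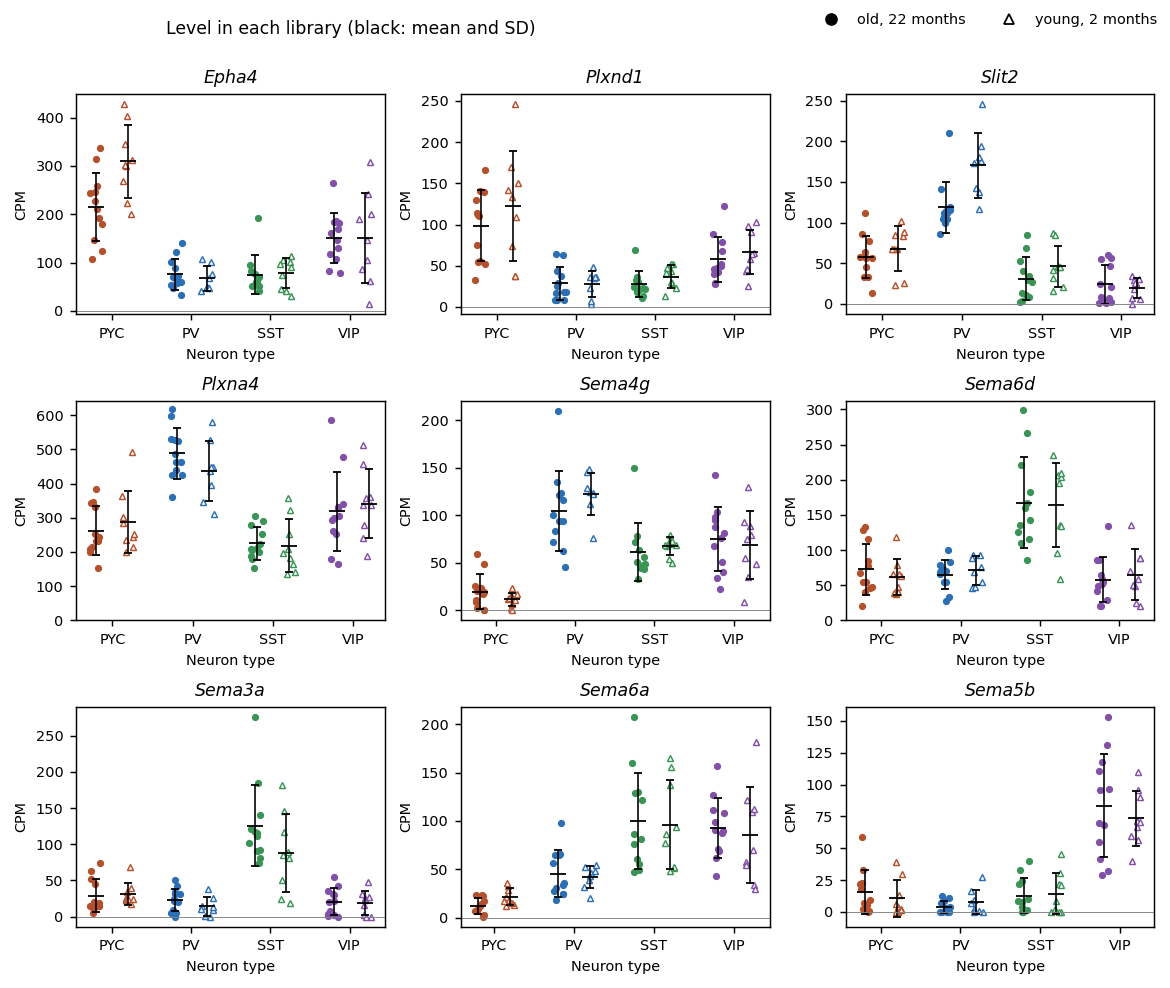
CPM of 9 members in each of the 83 libraries (y axis) by neuron type, with old libraries as filled circles left of young libraries as open triangles; black lines give mean and SD of each group. The type that stands out differs from gene to gene, as with Slit2 in PV, Sema3a in SST and Sema5b in VIP neurons, while old and young groups of a type overlap in all 9 panels.

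Among plexins, the receptors of semaphorins, 7 of 8 tested members were called. Plxnd1 was higher in PYC neurons at 32.4, 111 and 246 CPM, against 3.63, 27.5 and 63.7 CPM in PV, 10.5, 30.2 and 69.3 CPM in SST, and 25.7, 52.7 and 123 CPM in VIP neurons. Its log2 fold changes were 1.56 ± 0.19 in PYC (adjusted p = 5.7e-11), -1.02 ± 0.23 in PV (adjusted p = 0.00017) and -0.91 ± 0.22 in SST neurons (adjusted p = 0.0016). Plxnd1 is also made by blood vessels, whose marker sum had medians of 57.1 CPM in PYC, 45.6 CPM in PV, 64.0 CPM in SST and 93.9 CPM in VIP pools, and their part was not tested. Plxna4, which with neuropilin-1 transmits Sema3a signals, was highest in PV neurons. It had 309, 456 and 618 CPM there, against 154, 243 and 491 CPM in PYC, 137, 208 and 358 CPM in SST, and 163, 330 and 585 CPM in VIP neurons, with log2 fold changes of 0.83 ± 0.10 in PV (adjusted p = 3.4e-12) and -0.71 ± 0.10 in SST neurons (adjusted p = 4.3e-08).

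Plxna3, which with neuropilin-2 transmits Sema3f signals, was called in all 4 types. It had 5.71, 60.3 and 104 CPM in VIP neurons and 19.5, 50.4 and 70.3 CPM in SST neurons, against 0, 13.1 and 32.1 CPM in PYC and 1.09, 13.9 and 48.3 CPM in PV neurons. Log2 fold changes were 1.18 ± 0.27 in VIP (adjusted p = 0.00073), 0.94 ± 0.27 in SST (adjusted p = 0.016), -1.23 ± 0.31 in PYC (adjusted p = 0.0016) and -0.89 ± 0.31 in PV neurons (adjusted p = 0.028). The PV call was lost without any of 3 single libraries, and the PV and SST calls were lost in each age alone. Plxnc1, the receptor of Sema7a, was higher in SST neurons at 0.47 ± 0.15 (adjusted p = 0.04, lost without any of 23 single libraries and without the 2 old VIP libraries with Sst) and lower in PYC neurons at -0.59 ± 0.16 (adjusted p = 0.0049). Plxna1 differed by little, at 0.36 ± 0.11 in SST (adjusted p = 0.028) and -0.35 ± 0.12 in PV neurons (adjusted p = 0.025). The SST call was lost without any of 5 single libraries and in each age alone, and the PV call under 6 other settings, leaving out the libraries low in mitochondrial counts among them.

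Both tested B-type plexins, receptors of class 4 semaphorins, were higher in VIP neurons. Plxnb1 had 7.57, 46.8 and 157 CPM there, a log2 fold change of 0.92 ± 0.28 (adjusted p = 0.014), and Plxnb2 had 20.8, 63.2 and 151 CPM, at 0.94 ± 0.23 (adjusted p = 0.0013). The Plxnb1 call was lost without young VIP library 1 and under 4 other settings, leaving out the 6 libraries low in mitochondrial counts among them. Plxnb2 was lower in PV neurons at 1.26, 20.3 and 54.4 CPM and a log2 fold change of -1.01 ± 0.26 (adjusted p = 0.0016). Plxnb3 was not tested, with counts in 62 libraries and 0 to 100 CPM.

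Eph receptors were led by Epha4, a receptor of both ephrin-As and ephrin-Bs, which had the smallest p of all members higher in PYC neurons. It lay at 107, 246 and 428 CPM in PYC neurons, against 32.0, 67.0 and 141 CPM in PV, 30.7, 69.0 and 193 CPM in SST, and 14.1, 146 and 309 CPM in VIP neurons. On the log2 scale the differences were 1.50 ± 0.14 in PYC (adjusted p = 1.8e-15), -0.94 ± 0.17 in PV (adjusted p = 3.9e-06) and -0.95 ± 0.16 in SST neurons (adjusted p = 4.9e-06). VIP neurons lay between, and their difference from the mean of the other types did not pass at 0.40 ± 0.15 (adjusted p = 0.073). Ephb6 followed the same order in part, with 69.6, 180 and 382 CPM in PYC neurons, against 47.4, 82.3 and 130 CPM in PV, 57.0, 136 and 202 CPM in SST, and 13.6, 67.6 and 225 CPM in VIP neurons. It rose in PYC neurons at 0.94 ± 0.13 (adjusted p = 4.7e-09) and fell in VIP at -0.73 ± 0.14 (adjusted p = 6.2e-05) and PV neurons at -0.49 ± 0.15 (adjusted p = 0.0066).

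The ephrin-A receptors Epha7, Epha3 and Epha6 differed in 1 type each. Epha7 was higher in PYC neurons at 34.0, 109 and 185 CPM (log2 fold change 0.81 ± 0.17, adjusted p = 0.00013). Epha3 was higher in VIP neurons at 0, 24.5 and 56.4 CPM, against 0, 0.830 and 33.2 CPM in PYC, 0, 3.85 and 42.2 CPM in PV, and 0, 6.67 and 49.8 CPM in SST neurons (1.90 ± 0.56, adjusted p = 0.012). Whether Epha3 would have passed the filter without the VIP libraries was not tested. Epha6 was lower in PYC neurons at 1.92, 64.6 and 132 CPM, with a log2 fold change of -0.55 ± 0.20 that only just passed (adjusted p = 0.047) and was lost without any of 56 of the 83 libraries. Epha5, Epha10, Ephb1, Ephb2 and Ephb3 were called in no type, and Epha5 was nearly level, with medians of 159 CPM in PYC, 160 CPM in PV, 166 CPM in SST and 151 CPM in VIP neurons. Epha1, Epha2, Epha8 and Ephb4 were not tested and had counts in 30, 14, 50 and 29 libraries. With the looser filter Epha2 was called lower in VIP neurons at -3.03 ± 0.94 (adjusted p = 0.0183), a call that rests on few libraries.

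Fewer of their ligands could be tested. Of the ephrin-As, Efna3 and Efna5 were tested and called in no type, while Efna1, Efna2 and Efna4 had counts in 9, 48 and 1 of 83 libraries. Efna4 was not detectable at this depth in 82 libraries, with 0.160 CPM in 1 VIP library, where 3 counts correspond to between 0.110 and 2.06 CPM depending on the library. Among ephrin-Bs, Efnb2 had 27.8, 63.5 and 136 CPM in PYC neurons and 13.2, 58.6 and 164 CPM in VIP neurons, against 0.543, 24.2 and 43.5 CPM in PV and 8.30, 37.2 and 107 CPM in SST neurons. It rose in PYC neurons at 0.89 ± 0.21 (adjusted p = 0.00084), fell in PV neurons at -1.33 ± 0.25 (adjusted p = 1.1e-05) and only just passed in VIP neurons at 0.61 ± 0.22 (adjusted p = 0.049), a call lost without any of 45 single libraries and without the 2 old VIP libraries with Sst. Efnb3 fell in PV neurons at -1.22 ± 0.44 (adjusted p = 0.032), a call lost without any of 4 single libraries and in each age alone. Efnb1 was not tested, at 0 to 37.1 CPM.

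All 3 Slits, secreted repellents of Robo-bearing axons, were called, and they marked different types. Slit2 was higher in PV neurons, as were the ligands Ntn4, Sema4g, Sema7a and Sema3e. It lay at 85.9, 118 and 245 CPM in PV neurons, against 13.7, 63.4 and 112 CPM in PYC, 1.97, 34.3 and 87.4 CPM in SST, and 0.299, 20.5 and 60.8 CPM in VIP neurons. No VIP library reached the lowest PV library, while the highest SST library was just above it and the highest PYC library further inside the PV range. Its log2 fold changes were 1.98 ± 0.25 in PV (adjusted p = 3.2e-10) and -1.68 ± 0.30 in VIP neurons (adjusted p = 1.1e-05).

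Slit1 and Slit3 were higher in PYC neurons. Slit1 had 20.2, 81.1 and 139 CPM in PYC neurons, against 9.32, 30.3 and 81.2 CPM in PV, 24.5, 47.6 and 71.1 CPM in SST, and 4.42, 54.9 and 155 CPM in VIP neurons, with log2 fold changes of 0.80 ± 0.19 in PYC (adjusted p = 0.00082) and -0.68 ± 0.21 in PV neurons (adjusted p = 0.012). Slit3 had 26.0, 82.0 and 182 CPM in PYC neurons and a log2 fold change of 1.21 ± 0.25 (adjusted p = 5.7e-05). Of their receptors, Robo2 was high in every type, with medians of 224 CPM in PYC, 213 CPM in PV, 281 CPM in SST and 246 CPM in VIP neurons, and was not called. Robo1 was lower in PYC neurons at 16.1, 43.8 and 109 CPM, against 39.0, 108 and 201 CPM in PV, 25.4, 98.7 and 161 CPM in SST, and 63.1, 104 and 268 CPM in VIP neurons (log2 fold change -1.08 ± 0.17, adjusted p = 1e-07).

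Robo1 was also called higher in PV (0.48 ± 0.15, adjusted p = 0.014) and VIP neurons (0.57 ± 0.15, adjusted p = 0.0042). The PV call was lost without young PV library 2 and in young libraries alone, and the VIP call in old libraries alone. Robo3, known for the crossing of the midline by hindbrain and spinal axons, was higher in PYC neurons at 0, 23.2 and 88.9 CPM, against 0, 4.49 and 38.3 CPM in PV, 0, 6.75 and 45.2 CPM in SST, and 0, 14.0 and 74.2 CPM in VIP neurons (1.72 ± 0.54, adjusted p = 0.015). Robo4, a receptor of blood vessels, was not tested, with a median of 0 CPM in every type and 39.4 CPM at most.

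Both netrin ligands had low levels per length, with medians of 2.10 RPKM for Ntn4 and 0.254 RPKM for Ntn1 over all libraries, and their highest median levels were in interneurons. Ntn4, a netrin related to laminins and found in basement membranes, had 8.68, 31.7 and 60.9 CPM in PV neurons, against 0, 1.13 and 11.2 CPM in PYC, 0, 16.1 and 46.3 CPM in SST, and 0, 3.31 and 42.4 CPM in VIP neurons. All PV libraries had counts of it, while 7 of 21 PYC libraries had none. Log2 fold changes were 2.22 ± 0.51 in PV (adjusted p = 0.00036) and -2.42 ± 0.65 in PYC neurons (adjusted p = 0.0034). The filter used the mean over all libraries, and Ntn4 averaged 30.6 CPM in PV neurons and 8.45 CPM over the other types. Whether it would have passed the filter without the PV libraries was not tested. Ntn1, the classical ligand of Dcc, did not pass the filter and had 0, 12.9 and 40.9 CPM in SST neurons, against 0, 0.468 and 18 CPM in PYC, 0, 0 and 14.2 CPM in PV, and 0, 5.79 and 35.2 CPM in VIP neurons. With the looser filter it was called higher in SST neurons at 2.09 ± 0.67 and lower in PV neurons at -2.54 ± 0.90 (adjusted p = 0.033 and 0.036). Sparse genes gave many false calls in such a fit on simulated counts, so these Ntn1 calls are uncertain.

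Of the 5 netrin receptors 4 were called. Unc5a was higher in PYC neurons at 100, 140 and 250 CPM, against 29.3, 65.6 and 140 CPM in PV, 23.1, 72.8 and 143 CPM in SST, and 31.1, 92.3 and 164 CPM in VIP neurons, with log2 fold changes of 0.90 ± 0.13 in PYC (adjusted p = 8.1e-09) and -0.59 ± 0.14 in PV neurons (adjusted p = 0.00071). Unc5d, which also binds Flrt2 in the developing mouse cortex, was higher in SST neurons at 18.6, 84.8 and 161 CPM, against 1.14, 35.2 and 142 CPM in PYC, 8.67, 38.7 and 139 CPM in PV, and 6.43, 39.5 and 171 CPM in VIP neurons (0.92 ± 0.24, adjusted p = 0.0044). Unc5c was higher in SST (0.63 ± 0.18, adjusted p = 0.014) and lower in PV neurons (-0.55 ± 0.20, adjusted p = 0.036), a PV call lost under 5 other settings and without any of 8 single libraries. The SST call of Unc5c was lost without old SST library 10 and in each age alone. That of Unc5d was also lost in each age alone (edgeR adjusted p = 0.2338 in old and 0.07312 in young libraries).

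Dcc had 17.3, 60.2 and 148 CPM in VIP neurons, against 0, 43.7 and 79.3 CPM in PYC, 0.131, 13.1 and 47.9 CPM in PV, and 7.21, 35.5 and 82.6 CPM in SST neurons. It rose in VIP neurons at 1.27 ± 0.30 (adjusted p = 0.00098) and fell in PV neurons at -1.48 ± 0.36 (adjusted p = 0.00076). Unc5b was called in no type. The netrin-Gs, membrane-anchored relatives that bind the synaptic adhesion proteins Lrrc4c and Lrrc4, were both higher in PYC neurons. Ntng2 had 0.479, 22.2 and 72.9 CPM in PYC neurons, against 0, 3.57 and 17.6 CPM in PV, 0, 3.03 and 48.8 CPM in SST, and 0, 15.7 and 53.9 CPM in VIP neurons, at 1.55 ± 0.47 in PYC (adjusted p = 0.011) and -1.75 ± 0.59 in PV neurons (adjusted p = 0.02). Ntng1 had 10.3, 25.1 and 73.2 CPM in PYC neurons (1.23 ± 0.36, adjusted p = 0.0088). The Ntng1 call was lost in each age alone (edgeR adjusted p = 0.2317 in old and 0.07379 in young libraries). Of Ntng2's exons 14.0% are shared with another gene on the same strand, so its counts are uncertain to that extent.

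Other genes of the guidance pathways were taken from a list of 74 adaptors, GTPase regulators and adhesion partners, of which 67 were tested. In PYC neurons 14 were called higher and 14 lower, led by Ngef, an ephexin that binds Eph receptors (1.46 ± 0.12), and the kinase Ptk2 (1.03 ± 0.15) on the higher side and by the GTPase Rnd2 (-2.59 ± 0.30) and the collapsin response mediator Dpysl5 (-2.05 ± 0.43) on the lower side. PV neurons had 8 higher and 15 lower, with Rnd2 at 3.05 ± 0.23, the cofilin kinase Limk1 at 1.67 ± 0.18, the exchange factor Vav2 at -2.22 ± 0.39 and the growth cone protein Gap43 at -1.89 ± 0.30. SST neurons had 9 higher and 6 lower. The adhesion molecule Chl1 stood at 1.67 ± 0.16, Dpysl5 at 1.40 ± 0.35, and the netrin-G partners Lrrc4c and Lrrc4 at -1.01 ± 0.16 and -0.64 ± 0.13. VIP neurons had 8 higher and 5 lower, with Vav2 at 2.04 ± 0.30, Dpysl5 at 1.92 ± 0.35, Limk1 at -0.90 ± 0.20 and the adhesion molecule Cntn2 at -0.79 ± 0.15. All of these passed an adjusted p of 0.05 over all genes. Of all genes tested, 9.15% were called higher and 7.5% lower in PYC neurons, and 11.1% and 11.6% in PV neurons. The shares were 4.46% and 3.1% in SST neurons, and 6.98% and 5.5% in VIP neurons. Whether the counts among the 67 pathway genes exceed these shares was not tested.

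The type differences were also fitted in the 48 old and the 35 young libraries, which share no library. Old libraries gave 56 calls and young libraries 31, and 24 calls were in both, which is 42.9% of the old and 77.4% of the young calls. The shares of all genes called in these fits were not counted. Whether guidance genes overlap more or less than other genes is therefore not known. All 56 old calls had the same sign in young libraries and all 31 young calls had the same sign in old ones. Sema5b in VIP neurons had log2 fold changes of 3.17 ± 0.59 in old and 2.81 ± 0.71 in young libraries, Sema3a in SST neurons 2.35 ± 0.42 and 2.01 ± 0.54, Slit2 in PV neurons 1.78 ± 0.36 and 2.18 ± 0.30, and Epha4 in PYC neurons 1.20 ± 0.17 and 1.78 ± 0.24. The widest gaps among calls made in both were Nrp2 in PV neurons, at -1.47 ± 0.51 in old and -3.29 ± 0.71 in young libraries, and Sema6a in PYC neurons, at -2.64 ± 0.33 and -1.69 ± 0.31. These differences between the ages were not tested in that form.

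**Figure D4:**
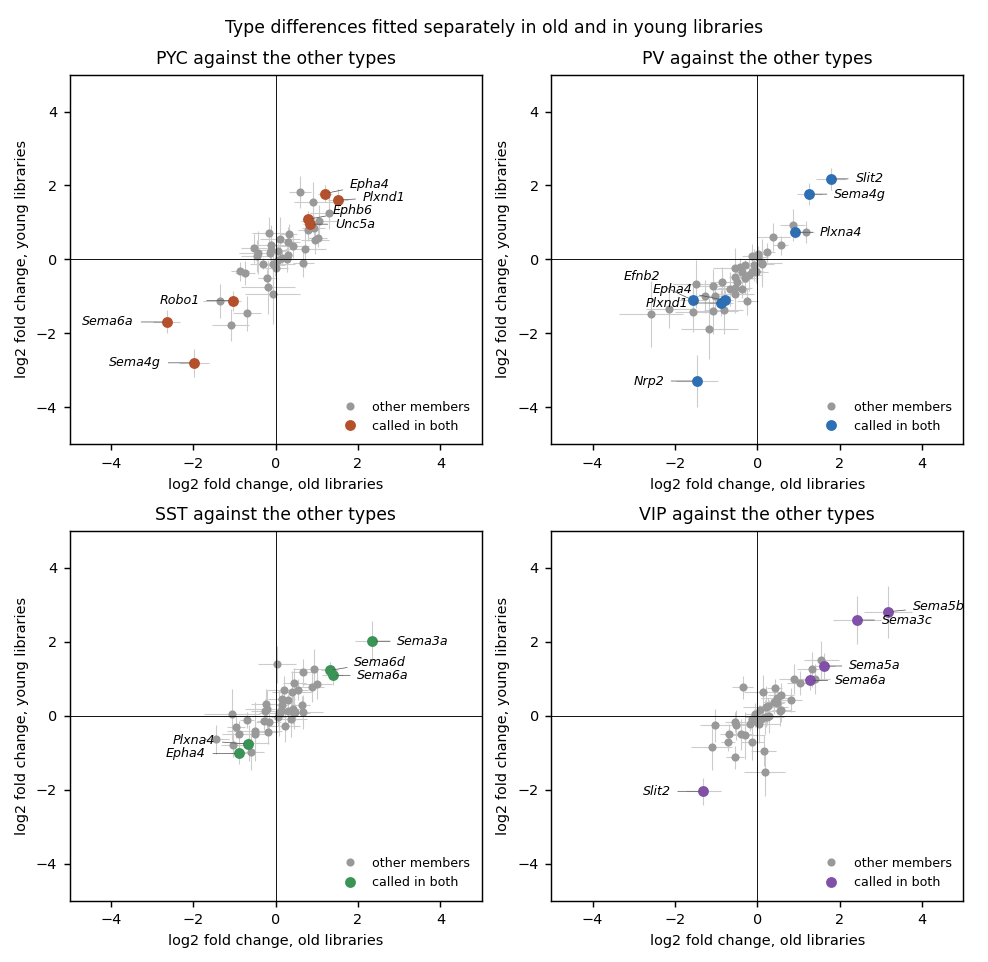
Log2 fold change of each tested member in a type against the other 3 types, in the old libraries (x axis) and the young libraries (y axis), 1 panel per type; grey bars are SE, and coloured, named points are the 24 calls made in both. The named points lie in the quadrants where both folds have the same sign.

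Age within a type moved no guidance gene past the adjusted threshold. Old libraries were set against young ones of the same type with edgeR's quasi-likelihood test, with 60 members tested in PYC, 56 in PV, 61 in SST and 58 in VIP neurons. None was called, and 0.0% of all genes tested were called in any of the 4 types. DESeq2 and limma-voom also called no member. A fit with no filter on low counts called 1 member in PYC, 2 in PV and 3 in VIP neurons. How many of all genes that fit called was not counted, so its calls have no background share beside them. At an unadjusted p under 0.05 there were 2 members in PYC, 1 in PV, 2 in SST and 2 in VIP neurons, beside 2.91%, 2.32%, 2.87% and 2.98% of all genes, or 3.33%, 1.79%, 3.28% and 3.45% of the members. Old libraries were the higher in 25 of 60, 30 of 56, 20 of 61 and 31 of 58 members, beside 50.2%, 50.5%, 49.3% and 51.8% of all genes. The median log2 fold changes of the members were -0.12, 0.04, -0.12 and 0.01, beside 0.0031, 0.0046, -0.0079 and 0.0192 over all genes.

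The member with the smallest p was Slit2 in PV neurons, the type where it was highest. It had 85.9, 112 and 210 CPM in old PV libraries, against 116, 174 and 245 CPM in young ones, a log2 fold change of -0.57 ± 0.18 with an unadjusted p of 0.00299 and an adjusted p of 1.0 (edgeR). The median old library lay below the lowest young one, and the ranges overlapped. Epha4 in PYC neurons was next, with 107, 219 and 337 CPM in old libraries, against 201, 303 and 428 CPM in young ones (-0.52 ± 0.18, unadjusted p = 0.00699, adjusted p = 1.0). Neither passed adjustment in this fit. With no filter on low counts both did (adjusted p = 0.042 for Slit2 and 0.0346 for Epha4, edgeR), but the share of all genes called there was not counted. In old PV libraries the oligodendrocyte precursor markers summed to 52.6 ± 20.6 CPM, against 90.0 ± 27.2 CPM in young ones (SD, n = 12 and 8; exact permutation p = 0.0026, adjusted p = 0.0729 over 56 tests), and their part was not tested.

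The remaining members under an unadjusted 0.05 were Ephb2 in PYC, Sema5a and Sema7a in SST, and Unc5d and Epha6 in VIP neurons. Ephb2, an ephrin-B receptor of dendritic spines, had 1.75, 19.4 and 45.0 CPM in old PYC libraries, against 7.25, 34.2 and 79.3 CPM in young ones (-0.96 ± 0.48, unadjusted p = 0.0499). Sema5a had 10.5, 22.0 and 30.3 CPM in old SST libraries, against 1.58, 47.8 and 75.8 CPM in young ones (-1.02 ± 0.45, unadjusted p = 0.0267). Sema7a had 22.0, 53.2 and 97.6 CPM in old SST libraries, against 16.9, 75.4 and 178 CPM in young ones (-0.69 ± 0.31, unadjusted p = 0.0321). For both, the lowest of all SST libraries was a young one. The mitochondrial share was 11.9% ± 1.38 in old and 9.29% ± 2.76 in young SST libraries (SD, n = 12 and 9; exact permutation p = 0.00137, adjusted p = 0.0729), and its part was not tested.

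Unc5d had 9.36, 46.4 and 171 CPM in old VIP libraries, against 6.43, 18 and 57.2 CPM in young ones (1.22 ± 0.49, unadjusted p = 0.0164). With no filter on low counts its edgeR adjusted p was 0.0477, again without a counted share of all genes. The SST marker list summed to 784 ± 698 CPM in old VIP libraries, against 524 ± 115 CPM in young ones, and the VIP list to 2096 ± 460 CPM in old against 2650 ± 724 CPM in young ones (SD, n = 12 and 9; permutation p = 0.402 and 0.037, adjusted p = 0.683 and 0.299). Without the 2 old VIP libraries with Sst, Unc5d stood at 1.09 ± 0.53, and the part of these markers was not tested. Epha6 had 50.7, 119 and 198 CPM in old VIP libraries, against 23.1, 82.3 and 137 CPM in young ones (0.62 ± 0.30, unadjusted p = 0.0461). For these 5 members the edgeR adjusted p was 1.0. A p over the threshold does not show that levels were equal, and the 95% intervals left room for change: -0.92 to -0.21 for Slit2 in PV neurons, -0.88 to -0.16 for Epha4 in PYC neurons, and 0.26 to 2.17 for Unc5d in VIP neurons, before adjustment. Of the 74 listed pathway genes, 69 were tested for age in PYC, 69 in PV, 68 in SST and 71 in VIP neurons, and none was called. At an unadjusted p under 0.05 there were 5 in PYC, 4 in PV, 1 in SST and 5 in VIP neurons. The shares of all genes there were 2.91%, 2.32%, 2.87% and 2.98%.

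**Figure D5:**
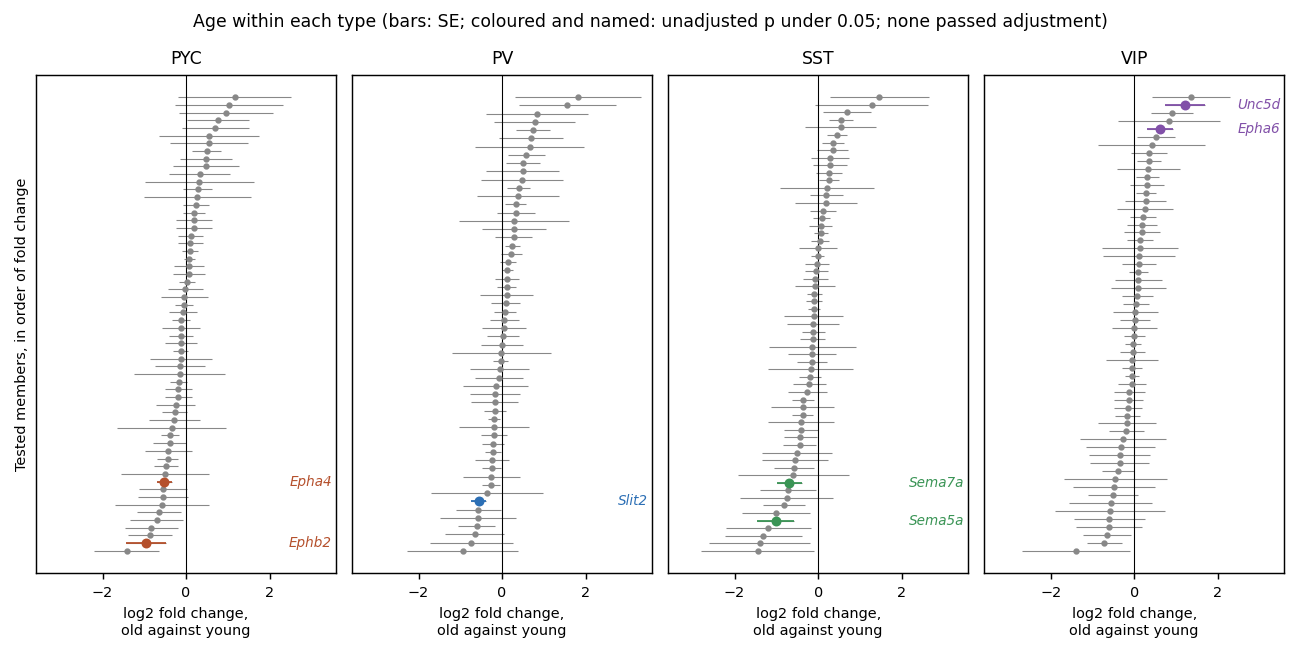
Log2 fold change of old against young libraries (x axis) for each tested member within each type, in order of size (rows); bars are SE, and the 7 named points had an unadjusted p under 0.05. Most points lie close to 0, with longer bars at both ends, and no point passed adjustment.

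Whether age acted differently in different types was tested as the interaction of age and type over all 83 libraries. None of 53 members was called by edgeR, DESeq2 or limma-voom, beside 0.0104% of all genes by edgeR, and 1 member had an unadjusted p under 0.05, beside 2.78% of all genes. That member was Slit1 (p = 0.0288, adjusted p = 1.0). Old against young, its log2 fold change was 0.74 ± 0.41 in PV and -0.71 ± 0.43 in VIP neurons, with medians of 45.5 CPM in old and 25.3 CPM in young PV libraries and of 50.3 CPM in old and 75.8 CPM in young VIP libraries. Nrp2 (p = 0.0743) and Sema7a (p = 0.0901) followed. Nrp2 stood at 1.56 ± 1.16 in PV and -0.82 ± 0.50 in SST neurons, and Sema7a at -0.69 ± 0.31 in SST and 0.31 ± 0.40 in VIP neurons.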

How the data were processed

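Libraries for RNA-seq were prepared with a strand-marking total RNA kit meant for picogram amounts, per the labels' protocols. The values are raw counts per Ensembl gene in the table deposited by the authors, without normalization. Reads had been aligned by HISAT2, and the build was GRCm38, per the submitters' processing notes. The sources used here do not give the counting tool, the annotation release or the strand setting. Genes that overlap on opposite strands can therefore not be separated. No molecular identifiers are given, so PCR copies count as reads.

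Symbols were matched for 48349 of 48795 genes. CPM is the count divided by the library total and scaled, and RPKM divides CPM by kilobases of merged exons from GENCODE release M21. Types, age within a type and their interaction were tested with edgeR 4.0.16 in R 4.3.3 (quasi-likelihood F-test, robust, TMM, 2-sided) with Benjamini-Hochberg adjustment over all genes tested. Genes passed filterByExpr with a minimum count of 10, and for type and interaction also had a mean log2 CPM at or above the median. Fold changes are log2, and SE is taken from the F statistic. The scripts were tested on simulated data. Alternatives used DESeq2 1.42.0, limma 3.58.1, other factors, filters, covariates and library sets. Marker sums of old and young libraries were compared by exact permutation tests, 2-sided.

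Named with full values were, per type, up to 5 members with the largest positive and 5 with the largest negative fold among those called; for age, up to 3 members per type with the smallest unadjusted p under 0.05; the 3 with the smallest interaction p; and the 10 with the highest median RPKM; members outside this rule are given with their family. For the pathway list, up to 2 genes per type and direction were named. The members and lists were chosen with earlier results of these data known. The series states 12 old and 9 young mice, but the labels tie no library to a mouse, so pools of different types from the same mouse were treated as independent, and p-values measure the spread between these libraries. Library numbers follow accession order and pair nothing.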

Additional observations from a re-analysis of the deposited data

Results flagged for a closer look

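In groups of up to 10 libraries, which here are the young groups, a Dixon test on log2(CPM + 1) asked whether the highest or lowest library stood apart from the rest, for each named member. It marked 16 of 124 groups of values, where chance marks about 1 in 20 if values follow a normal distribution. Sparse counts with zeros need not follow one on this scale, so the number of marks cannot be judged against that rate. The values below are CPM, and numbers of libraries only name them.

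Libraries at 0 CPM were Epha3 in young VIP library 1 at 0 (the others 14.4 to 56.4), Ntng2 in young VIP library 2 at 0 (the others 11 to 53.9), and Plxna3 and Robo3 in young PYC library 5, both at 0 (the others 6.19 to 28.1 and 15.8 to 88.9). Low libraries were Epha6 in young PYC library 8 at 1.92 (the others 19.95 to 124), Unc5d in young PYC library 9 at 1.14 (the others 21.2 to 142), Slit2 in young VIP library 3 at 0.299 (the others 6.21 to 35.0) and Sema3c in young VIP library 5 at 6.52 (the others 54.3 to 180). In young PV neurons Sema4g was low in library 7 at 76.5 (the others 112 to 148), Sema5a in library 4 at 14.1 (the others 30.6 to 56.8) and Sema7a in library 8 at 77.1 (the others 127 to 177).

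Young SST library 5 was low in Sema5a at 1.58 (the others 18 to 75.8) and in Sema7a at 16.9 (the others 60.4 to 178). Young SST library 8 was low in Sema6b at 30.7 (the others 83.6 to 154) and in Sema6c at 19.1 (the others 39.0 to 63.1). The only high library was young PYC library 1 for Sema6c, at 33.6 (the others 4.13 to 10.4). Young VIP libraries 1 and 3 are among the 6 with few mitochondrial counts.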

How the results depend on the processing

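Of the 80 calls of members in a type, DESeq2, RLE factors and library total as a covariate each kept all 80, limma-voom with quality weights 77, and filterByExpr alone or no filter 76 each. Leaving out the 6 libraries low in mitochondrial counts kept 76, leaving out the 2 old VIP libraries with Sst 78, and the F number in the titles as a factor, whose meaning is not stated, 72. No call changed sign in any of these, nor among the 74 tested in old libraries alone and the 77 tested in young libraries alone. limma-voom gave 14 members higher and 8 lower in SST neurons. Old libraries alone gave 9 members higher in PYC and 4 in SST neurons. Young libraries alone gave 5 higher and 5 lower in PYC, 3 and 6 in PV, 3 and 2 in SST, and 5 and 2 in VIP neurons; these fits have fewer libraries. With no filter on low counts, 2 members were called for the interaction (Efna1 and Sema3f). For age that setting called 1 in PYC (Epha4), 2 in PV (Efna1 and Slit2) and 3 in VIP neurons (Epha2, Efna1 and Unc5d). The share of all genes called in that fit was not counted, and the cause was not tested. Leaving out each library in turn gave 13 to 16 members higher and 8 to 9 lower in PYC, 6 to 7 and 16 to 22 in PV, 7 to 10 and 5 to 7 in SST, and 11 to 13 and 4 to 4 in VIP neurons, and 0 to 0 for age and interaction. Sema3c in PV neurons lost its call without any of 10 libraries. No paired analysis was possible because the library numbers follow accession order and no label ties libraries to a mouse. Members under about 3 counts in a library (up to 2.06 CPM) cannot be told from absent.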
